A study of Mus musculus with 24 samples.

Results

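Motile cilium structure genes are 44 genes that encode the parts and the assembly factors of the beating cilium, and they are described here in mouse lung after inhaled carbon nanomaterials. The genes came from a list of names. Each was found through the array's annotation, older symbols included, and of several spots for a gene the one brightest on average over the 24 samples. All 44 were among the 20738 genes named on the array, and all 44 passed the filter on low signal, 42 of them in every sample. The gene annotated as Spag6 carries the accession of the gene now called Spag6l, and Dnai1 and Dnai2 stand in the reference table as Dnaic1 and Dnaic2.

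The samples were lungs of female C57BL/6 mice of 7 to 8 weeks. Mice received 10 µg of a carbon nanomaterial in 50 µl of PBS on each of 4 days by oropharyngeal aspiration, in which fluid laid on the throat is inhaled, and the lungs were collected 24 h after dosing ended. The groups were rCNT, tCNT and SES with 3 samples each, BayTubes, Graphite and fullerene with 4 each, and Ctrl with 3 samples of mice given 50 µl of PBS alone. Each sample pooled 2 RNA samples of 1 group, so the spread between samples is a spread between pools. BayTubes is a brand of carbon nanotube and CNT is the usual short form of that word, while the labels do not spell out SES. Whether SES is a nanotube too cannot be read from the labels.

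The motile cilium of the airway is a ring of doublet microtubules around a central pair. Dynein arms on the doublets pull neighbouring doublets past each other, radial spokes and the central pair time that motion, nexin links hold the doublets together, and further proteins line the inside of the doublets. In the lung these genes are read mainly in the multiciliated cells of the bronchi and bronchioles, where FOXJ1 and the RFX factors switch them on during cell formation. Because whole lung was measured, a lower or higher signal from fewer or more ciliated cells and one from less or more RNA in each cell cannot be told apart.

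RFX2 and RFX3, both among the 44, bind the X-box, a motif near the start of many cilium genes, and the promoters of the 44 genes were searched for it. RefSeq promoter windows of build GRCm38.p6 were present for 38 of the 44 genes, and the 250 bases before each start were searched on both strands. The full X-box was searched in 1 form, GTNNCC and GNAAC with exactly 3 bases of any kind between them. Arms at another spacing were not counted as full. A gene with several windows was counted as 1 gene. This form stood before 6 of 38 genes (15.8%), against 2.58% of 13080 genes tested that have a window. Of all 32851 windows, each counted by itself, 1.80% held it. The strict left arm alone, GTTGCC, stood before 16 of 38 genes (42.1%), against 12.3% of genes tested and 10.4% of all windows. It can be part of a full X-box. The forkhead motif TGTTTAC stood before 2 of 38 genes (5.26%), against 2.95% of genes tested and 3.17% of all windows. Of the genes called higher than Ctrl after at least 1 material, 2 of 21 had the full X-box in the form searched and 9 of 21 the arm. Of the others it was 4 of 17 and 7 of 17. With the spacing fixed, these full counts do not tell how many genes hold both arms. A match describes letters in a window and is no evidence of binding. Full matches of a spoke gene (Cfap206), a basal body gene (Pifo) and the central pair genes Hydin and Spag16 are printed here 5′ to 3′ on the gene's strand, with the motif in capitals and, for Pifo, the match nearest its start. In Cfap206 and Hydin the motif lies on the opposite strand, so the capitals show its reverse complement:
Cfap206 (chr4:34730207-34730262, minus strand): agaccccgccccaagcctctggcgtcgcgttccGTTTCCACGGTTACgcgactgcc
Hydin (chr8:110266923-110266976, plus strand): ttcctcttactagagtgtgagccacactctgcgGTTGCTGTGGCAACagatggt
Pifo (chr3:106001498-106001550, minus strand): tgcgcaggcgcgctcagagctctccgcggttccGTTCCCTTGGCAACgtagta
Spag16 (chr1:69826834-69826913, plus strand): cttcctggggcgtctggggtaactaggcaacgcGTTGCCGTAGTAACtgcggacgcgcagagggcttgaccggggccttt

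The arm nearest the start is shown the same way for 6 genes that were higher than Ctrl in at least 2 comparisons. In Dnai2 and Mns1 it reads GGCAAC because it lies on the opposite strand. In Dynlrb2 and Lrrc43 the letters GCAAC follow the arm at a shorter spacing than the full form searched. In Dnai2 they do so on the opposite strand. Dynlrb2, Lrrc43 and Dnai2 were therefore not counted among the full matches.
Lrrc23 (chr6:124779728-124779799, minus strand): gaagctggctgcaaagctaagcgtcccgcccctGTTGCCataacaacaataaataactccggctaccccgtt
Tekt1 (chr11:72361883-72361930, minus strand): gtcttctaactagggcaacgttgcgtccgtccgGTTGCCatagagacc
Mns1 (chr9:72438424-72438495, plus strand): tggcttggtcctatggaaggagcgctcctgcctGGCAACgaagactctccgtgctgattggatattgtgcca
Dnai2 (chr11:114727360-114727418, plus strand): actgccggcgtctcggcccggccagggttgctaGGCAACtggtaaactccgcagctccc
Dynlrb2 (chr8:116504931-116505002, plus strand): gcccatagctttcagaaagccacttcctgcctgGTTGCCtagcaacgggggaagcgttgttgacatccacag
Lrrc43 (chr5:123489266-123489324, plus strand): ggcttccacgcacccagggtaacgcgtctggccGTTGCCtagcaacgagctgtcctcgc

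All values below are log2 signals as deposited, so a difference of 1 stands for a 2-fold change, and levels of different genes are not set against each other because each probe has its own brightness. The 24 samples lay on 12 arrays of 3 slides, 1 sample in each dye, and their medians ranged from 6.18 to 6.20. Differences come from 1 limma fit over 16519 genes with terms for group and dye and with array as a random block. They can therefore depart from the difference of the printed sample values. Beside the calls, the text names the samples of the compared groups without which a call was lost, with the range of the difference over all fits that leave out 1 sample of those groups. A call is said to stand only without a sample where, of these fits, only the one without it kept the call. A gene was called higher or lower at a Benjamini-Hochberg adjusted p under 0.05. Counts at an unadjusted p under 0.05 in limma are given in places. Of 16519 genes tested, 5731 passed that threshold after rCNT, 1536 after tCNT, 747 after SES, 2294 after BayTubes, 3394 after Graphite and 1993 after fullerene. Markers of lung tissue were bright, with the 10 genes of alveolar type 2 cells averaging 15.03 to 15.24 in the Ctrl samples. All 6 comparisons with Ctrl share the same 3 Ctrl samples, so they are not independent of each other.

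As a group, the cilium genes were lowest in the lungs that received PBS alone. With each gene centred on its own mean over the 24 samples, the mean of the 44 genes was -0.19, -0.24 and -0.22 in Ctrl 1, 2 and 3. It was 0.10, 0.12 and 0.09 in rCNT 4, 5 and 6, and -0.01, 0.38 and 0.13 in tCNT 7, 8 and 9. The 3 rCNT samples lay close together, while the tCNT samples were far apart, with 43 of 44 genes above their own mean in tCNT 8 and 17 in tCNT 7.

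The BayTubes samples 17 to 20 followed at 0.15, 0.13, -0.01 and 0.07. Graphite 13 to 16 gave -0.08, 0.02, -0.08 and 0.03, and SES 10 to 12 gave -0.02, -0.12 and -0.12. Every sample of these groups was above every Ctrl sample on this mean. The fullerene samples spread from -0.25 in fullerene 21, below all Ctrl samples and with 2 of 44 genes above their own mean, to 0.18 in fullerene 22, with 38 of 44. The cilium genes were also slightly brighter in Cy3, with a median difference of Cy5 minus Cy3 of -0.09 against -0.0018 over all genes, which the fit takes into account.

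**Figure D1:**
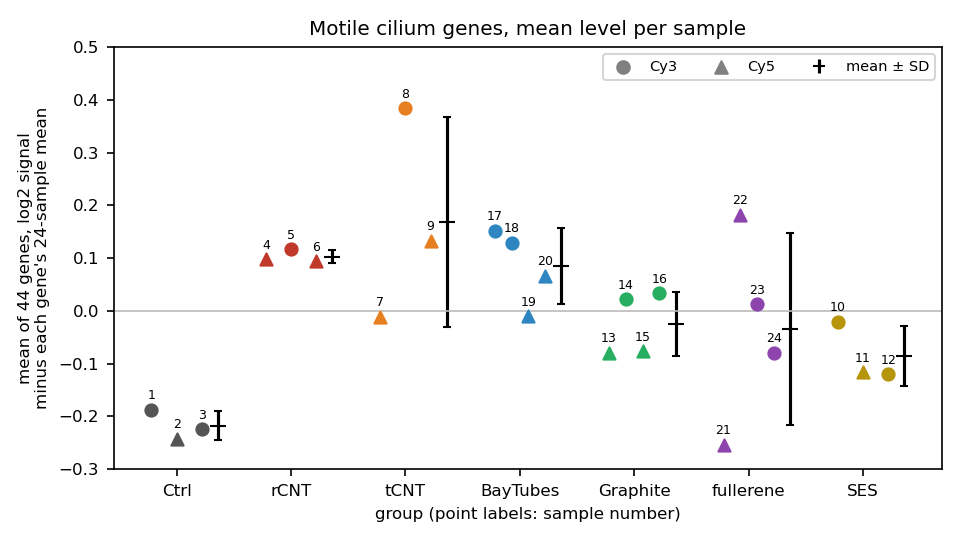
Mean of the 44 motile cilium genes in each sample, as log2 signal after each gene was centred on its mean over 24 samples (vertical axis), by group (horizontal axis). Points are samples with their numbers, circles Cy3 and triangles Cy5, and bars give the mean ± SD of a group. The 3 Ctrl samples lie between -0.24 and -0.19, and fullerene 21 at -0.25 is the 1 treated sample below them.

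After rCNT, 23 of 44 cilium genes were called higher and 1 lower, where 12.4% of all genes tested were called higher and 9.41% lower. The median difference over the 44 was 0.47, beside -0.02 over all genes. After BayTubes, 15 were called higher and 0 lower, beside 2.16% of all genes higher and 1.02% lower, with a median of 0.38. After tCNT, 8 were called higher and 0 lower, beside 0.684% of all genes higher and 0.0242% lower, with a median of 0.48.

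In the rCNT samples, 26 of 44 genes had every sample above every Ctrl sample, against 18.9% of all genes tested. The same held for 29 of 44 in tCNT, against 8.94%, and for 21 of 44 in BayTubes, against 6.54%. In all, 25 of the 44 genes were called in at least 1 comparison with Ctrl and 19 in none. The matching share of all genes tested was not computed, and rCNT alone called 21.8% of them in either direction. The 25 are therefore no measure of how the cilium genes stand apart.

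**Figure D2:**
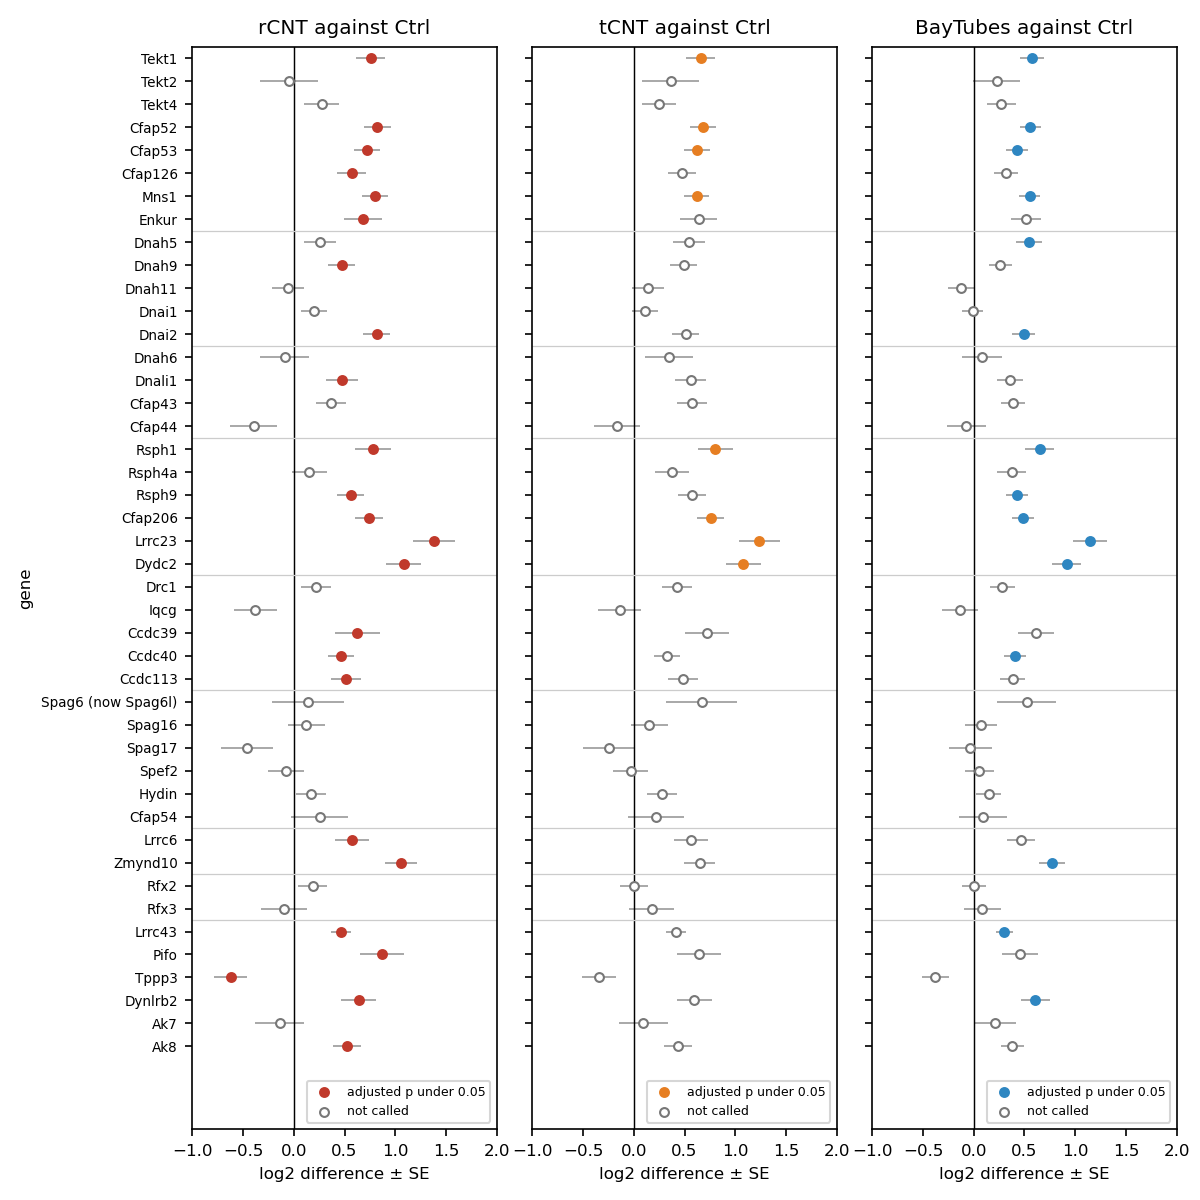
Log2 difference from Ctrl ± SE (horizontal axes) of the 44 genes (vertical axis, ordered by part of the cilium and divided by lines) after rCNT, tCNT and BayTubes. Filled points have an adjusted p under 0.05, which holds for 24, 8 and 15 genes. Lrrc23 is farthest to the right in each panel, and Tppp3 is the 1 filled point left of 0.

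**Figure D3:**
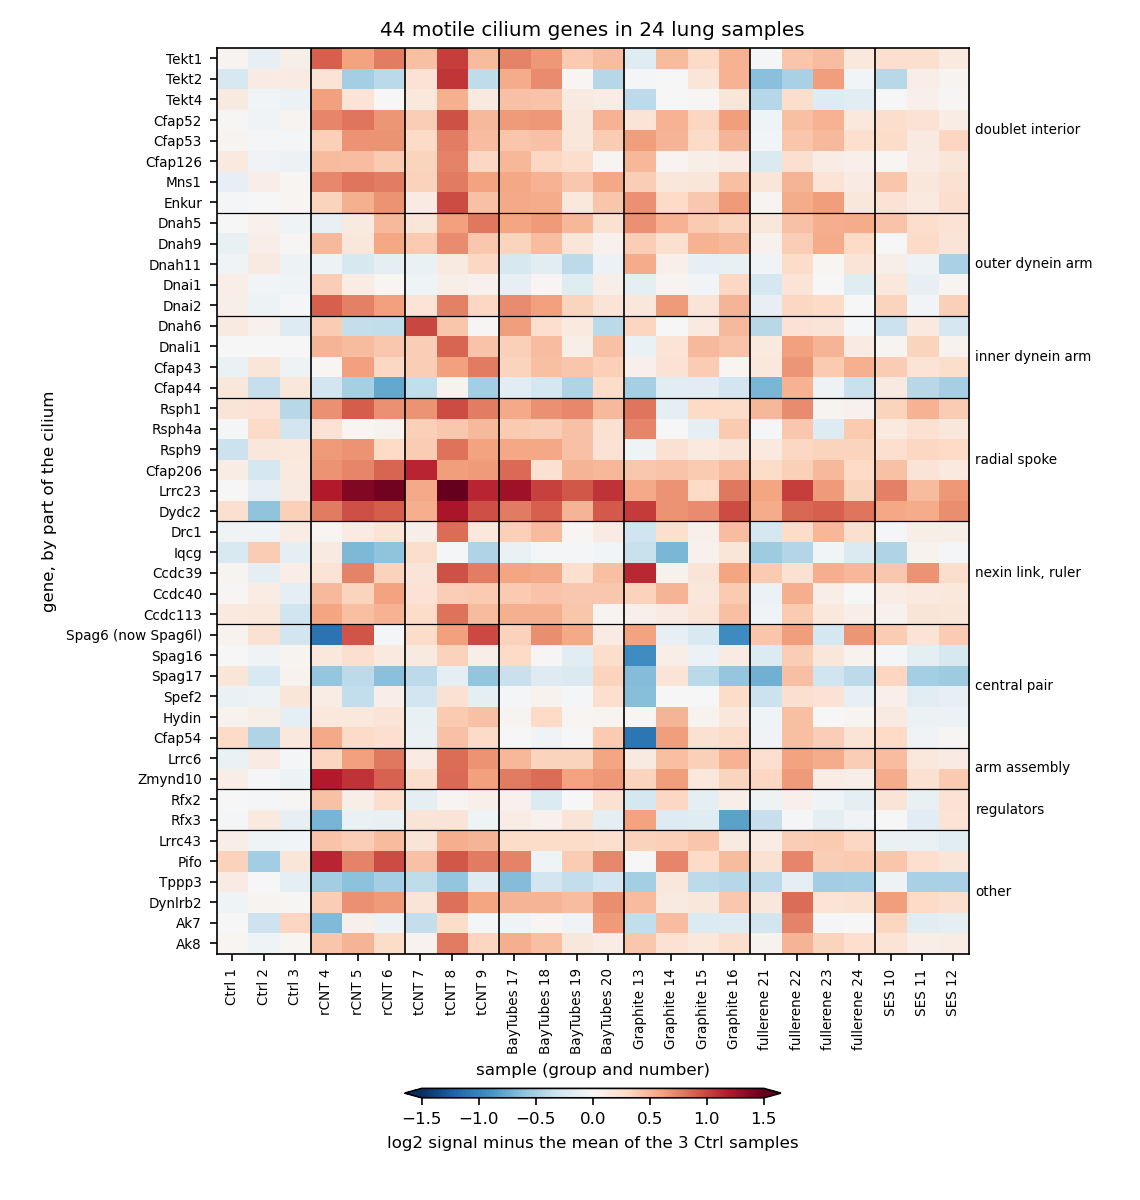
Log2 signal of each of the 44 genes (rows, by part of the cilium) in each of the 24 samples (columns, by group) minus that gene's mean over the 3 Ctrl samples, with red for higher and blue for lower. The radial spoke and doublet rows are red over most treated columns, and the central pair rows hold both colours.

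Most radial spoke genes were called higher after rCNT, tCNT and BayTubes. Of 6 genes, 5 were called higher after rCNT, 4 after tCNT and 5 after BayTubes, with medians of 0.76, 0.78 and 0.57. Lrrc23, a radial spoke protein, had the largest difference of the 44 in each of these comparisons. Its signal was 11.21, 11.10 and 11.36 in the Ctrl samples and 12.42, 12.61 and 12.67 in rCNT. It was 11.79, 12.95 and 12.37 in tCNT and 12.50, 12.24, 12.15 and 12.31 in BayTubes. Every one of these samples was above every Ctrl sample, and tCNT 7 was nearest to them. The differences were 1.38 ± 0.21 (SE) after rCNT, with limma adjusted p = 8.89e-05, 1.24 ± 0.20 after tCNT and 1.14 ± 0.17 after BayTubes. Its signals after the other materials were 11.52 to 12.02 in Graphite, 11.55 to 12.26 in fullerene and 11.69 to 11.98 in SES, again all above Ctrl but with no call. The tCNT call was lost without Ctrl 2, tCNT 8 or tCNT 9, over which left-out fits the difference ranged from 0.95 to 1.55.

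Dydc2, whose protein carries a DPY30 domain of the kind found in radial spokes, was called higher in 5 of 6 comparisons with Ctrl. Its Ctrl samples were unequal, at 7.48, 6.62 and 7.59, with Ctrl 2 far below the other two. It was 8.01, 8.20 and 8.14 in rCNT and 8.28, 7.91, 7.94 and 8.21 in Graphite. All treated samples lay above all Ctrl samples. The difference was 1.08 ± 0.17 after rCNT, 1.08 ± 0.17 after tCNT, 0.92 ± 0.14 after BayTubes, 0.95 ± 0.15 after Graphite and 0.90 ± 0.16 after fullerene. Without Ctrl 2 the difference lay between 0.65 and 0.83 in these 5 comparisons, and the calls after tCNT, Graphite and fullerene were lost. The tCNT call was also lost without tCNT 8 or tCNT 9, the Graphite call without Ctrl 1, and the fullerene call without fullerene 22 or fullerene 23.

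Rsph1, a spoke head protein, was 10.70, 10.73 and 10.09 in Ctrl and 11.20, 11.41 and 11.19 in rCNT. It was 11.08, 11.19, 11.23 and 10.99 in BayTubes. The treated groups did not overlap with Ctrl, and the differences were 0.78 ± 0.18 and 0.65 ± 0.14, with 0.80 ± 0.17 after tCNT. Ctrl 3 lay far below the other two. Its tCNT call was lost without any sample but tCNT 7 (0.62 to 0.91), and its BayTubes call without Ctrl 2, Ctrl 3 or BayTubes 18 (0.52 to 0.72). Cfap206, a protein at the base of the second spoke, rose by 0.74 ± 0.14 after rCNT, 0.76 ± 0.13 after tCNT and 0.48 ± 0.11 after BayTubes. Its tCNT call was lost without Ctrl 2 or tCNT 8 (0.62 to 0.87), and its BayTubes call without Ctrl 2, BayTubes 17 or BayTubes 20 (0.38 to 0.58). Rsph9, another spoke protein, was called higher after rCNT, by 0.56 ± 0.14, and after BayTubes, by 0.43 ± 0.11. Ctrl 1 was low for Rsph9, and without it the differences were 0.37 and 0.28 and both calls were lost. The BayTubes call was also lost without Ctrl 3, BayTubes 17, BayTubes 18 or BayTubes 19. Rsph4a, also of the spoke head, was called in no comparison, with 0.15 ± 0.17 after rCNT and 0.38 ± 0.17 after tCNT.

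The genes of the doublet interior and wall were also called higher in part. Of 8 genes, 6 were called higher after rCNT, 4 after tCNT and 4 after BayTubes, with medians of 0.70, 0.62 and 0.47. Tekt1 encodes a tektin, a filament protein inside the doublet. Its signal was 10.72, 10.56 and 10.77 in Ctrl, 11.58, 11.29 and 11.46 in rCNT and 11.43, 11.34, 11.08 and 11.14 in BayTubes. These groups did not overlap, and the differences were 0.76 ± 0.14 (limma adjusted p = 0.000854) and 0.57 ± 0.12. After tCNT the signal was 11.13, 11.72 and 11.16, with tCNT 8 the highest of all 24 samples and a difference of 0.66 ± 0.14. The tCNT call was lost without any sample but tCNT 7 (0.54 to 0.74), and the BayTubes call without Ctrl 2 or Ctrl 3 (0.54 to 0.59).

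Mns1 encodes a filament-like protein inside the doublet. It was 9.14, 9.36 and 9.30 in Ctrl and 9.98, 10.07 and 10.04 in rCNT. It was 9.61, 10.05 and 9.87 in tCNT and 9.84, 9.78, 9.68 and 9.85 in BayTubes. Each of these samples was above Ctrl, with differences of 0.80 ± 0.13, 0.62 ± 0.13 and 0.55 ± 0.10. The tCNT call was lost without any sample but tCNT 7 (0.49 to 0.76). Mns1 has 10 spots on the array, and their plain rCNT minus Ctrl differences ranged from 0.76 to 0.97.

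Cfap52, a protein of the doublet interior, rose by 0.82 ± 0.13 after rCNT, 0.68 ± 0.13 after tCNT and 0.56 ± 0.11 after BayTubes. The tCNT call was lost without any sample but tCNT 7 (0.59 to 0.78), and the BayTubes call without Ctrl 3 (0.50 to 0.62). Cfap53, also of the doublet interior, was 8.54, 8.47 and 8.48 in Ctrl, 8.86, 9.17 and 9.18 in rCNT and 9.13, 9.01, 8.78 and 9.01 in Graphite. It was called higher after rCNT, tCNT and BayTubes, by 0.72 ± 0.13, 0.62 ± 0.13 and 0.43 ± 0.11, and after Graphite, by 0.55 ± 0.11. Of these, the tCNT call stood only without tCNT 7 (0.54 to 0.72), the BayTubes call only without BayTubes 19 (0.37 to 0.51), and the Graphite call only without Graphite 14 or Graphite 15 (0.44 to 0.63). Cfap126, which marks cells with motile cilia, and Enkur, a calmodulin-binding doublet protein, rose after rCNT, by 0.57 ± 0.14 and 0.68 ± 0.18. The Enkur call was lost without Ctrl 1 or rCNT 6 (0.56 to 0.78). Their values after BayTubes were 0.32 ± 0.11 and 0.51 ± 0.15, not called, and the test of rCNT against BayTubes called neither. The other tektins showed no call, with Tekt2 at -0.05 ± 0.28 and Tekt4 at 0.27 ± 0.17 after rCNT. Tekt2 was scattered within groups, at 8.78, 9.64 and 8.19 in tCNT.

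Both dynein arm assembly factors, which act in the cytoplasm, rose after rCNT. Zmynd10 was 9.43, 9.30 and 9.26 in Ctrl, 10.52, 10.41 and 10.21 in rCNT and 10.11, 10.16, 9.93 and 9.97 in BayTubes. It was 9.59, 10.18 and 9.95 in tCNT. The rCNT samples were above every sample of the other 6 groups, and the difference from Ctrl was 1.05 ± 0.16 after rCNT (limma adjusted p = 9.03e-05) and 0.77 ± 0.13 after BayTubes. Lrrc6, its partner, rose by 0.57 ± 0.17 after rCNT and stood at 0.47 ± 0.14 after BayTubes with limma adjusted p = 0.0708. Its rCNT call was lost without Ctrl 1, Ctrl 3, rCNT 5 or rCNT 6 (0.45 to 0.73).

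The dynein arms themselves were mixed. Of 5 outer arm genes, 2 were called higher after rCNT, 0 after tCNT and 2 after BayTubes. After tCNT, 3 of the 5 had an unadjusted p under 0.05 in limma, beside 1536 of 16519 genes tested. Dnai2, an intermediate chain, was 8.95, 8.79 and 8.85 in Ctrl, 9.77, 9.62 and 9.48 in rCNT and 9.58, 9.49, 9.20 and 9.05 in BayTubes, with no overlap with Ctrl. It rose by 0.82 ± 0.14 after rCNT and 0.49 ± 0.11 after BayTubes. The BayTubes call was lost without Ctrl 2, Ctrl 3 or BayTubes 17 (0.44 to 0.55). Dnai1, the other intermediate chain, stood at 0.19 ± 0.13 and -0.01 ± 0.10 in the same comparisons. Among the heavy chains, Dnah9 rose after rCNT by 0.47 ± 0.14 and Dnah5 after BayTubes by 0.55 ± 0.13, while Dnah11 stood at -0.06 ± 0.16 and -0.13 ± 0.13. The Dnah9 call was lost without Ctrl 1 or rCNT 6 (0.38 to 0.62), and the Dnah5 call stood only without BayTubes 19 or BayTubes 20 (0.50 to 0.64).

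Dnah5 was 9.11, 9.17 and 9.04 in Ctrl and 9.70, 9.75, 9.60 and 9.34 in BayTubes. In rCNT it was 9.00, 9.25 and 9.60, of which rCNT 4 lay below all Ctrl samples. For rCNT against BayTubes Dnah5 differed by -0.29 ± 0.15 with a 95% interval from -0.60 to 0.02. Of 4 inner arm genes, 1 was called higher after rCNT, Dnali1, a light chain, at 0.47 ± 0.16. That call stood in 1 of 6 fits with a sample of either group left out, the one without Ctrl 1 (0.43 to 0.54). Cfap43 and Cfap44, which tie inner arms to the doublet, stood at 0.37 ± 0.15 and -0.39 ± 0.23, and the heavy chain Dnah6 at -0.09 ± 0.24.

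Of the 5 genes of the nexin link and of the ruler that sets the spacing along the doublet, 3 were called higher after rCNT and 1 after BayTubes. Ccdc40, a ruler protein, rose by 0.47 ± 0.13 after rCNT and 0.41 ± 0.11 after BayTubes. Its rCNT call was lost without Ctrl 3 (0.41 to 0.52), and its BayTubes call stood only without BayTubes 19 (0.34 to 0.47). Its partner Ccdc39 was 7.42, 7.23 and 7.47 in Ctrl and 7.58, 8.12 and 7.72 in rCNT. Its rCNT samples were all above Ctrl, by 0.63 ± 0.22 with limma adjusted p = 0.0485, a call that stood only without rCNT 4 (0.49 to 0.75). Ccdc113, a ciliary coiled-coil protein, rose after rCNT by 0.51 ± 0.15. Its call was lost without Ctrl 3 or rCNT 6 (0.40 to 0.60). The nexin link genes Drc1 and Iqcg stood at 0.22 ± 0.15 and -0.38 ± 0.21 after rCNT.

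No central pair gene was called in any comparison by limma, and none of the 6 had an unadjusted p under 0.05 against Ctrl. Of 16519 genes tested, 747 (SES) to 5731 (rCNT) had such a p in limma in the comparisons with Ctrl. Hydin, the large protein of the central pair projections, was 9.05, 9.08 and 8.86 in Ctrl, 9.15, 9.15 and 9.19 in rCNT and 9.04, 9.29, 9.03 and 9.04 in BayTubes. The rCNT samples were above Ctrl by a small step, 0.17 ± 0.15 with a 95% interval from -0.14 to 0.48. Spag6l was the most scattered of the 44, with an SD of 0.52 over the 24 samples, and was 7.89, 9.95 and 8.97 in rCNT. The standard error of its rCNT difference was 0.35, and its 95% interval ran from -0.60 to 0.88, which holds the size of the change in Tekt1. Spag16, Spef2 and Cfap54 stood at 0.12 ± 0.19, -0.08 ± 0.18 and 0.25 ± 0.28, and Spag17 at -0.46 ± 0.26. Spag16, Cfap54, Spef2 and Spag17 averaged 6.21, 6.29, 6.55 and 6.65 over the 24 samples, near the filter cutoff of 5.69 to 5.75. The spoke gene Cfap206, at 6.87, was also low and was called. What the low signal does to these results was not tested. Whether the central pair genes differ as a class from the spoke genes was not tested.

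The transcription factors Rfx2 and Rfx3 showed no call in any comparison. Rfx3 was 6.91, 7.08 and 6.81 in Ctrl and 6.23, 6.83 and 6.82 in rCNT, and was low in rCNT 4 and in Graphite 16, at 6.12. These samples share an array, on which Spag6l was low too, at 7.89 and 8.06. Its difference was -0.10 ± 0.22 after rCNT and 0.08 ± 0.18 after BayTubes. Rfx2 stood at 0.19 ± 0.14 and 0.00 ± 0.12, with 95% intervals from -0.11 to 0.48 and from -0.24 to 0.25.

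Of the remaining 6 genes, 4 rose and 1 fell after rCNT. Pifo, a regulator of cilium disassembly at the basal body, was 7.77, 6.91 and 7.61 in Ctrl and 8.57, 8.17 and 8.41 in rCNT, a difference of 0.86 ± 0.22. Without Ctrl 2, the low one, the difference was 0.68 and the call was lost. Dynlrb2, a dynein light chain, rose by 0.64 ± 0.17 after rCNT and 0.61 ± 0.14 after BayTubes. Its rCNT call was lost without rCNT 5 (0.54 to 0.76), and its BayTubes call stood only without BayTubes 18 or BayTubes 19 (0.55 to 0.69). Lrrc43, named for its leucine-rich repeats, rose by 0.47 ± 0.10 after rCNT. After BayTubes it was called at 0.30 ± 0.08, but whichever of the 7 samples was left out that call was lost (0.27 to 0.33). Ak8, an adenylate kinase of cilia, rose by 0.53 ± 0.14 after rCNT. Ak7, another adenylate kinase, stood at -0.14 ± 0.24 after rCNT. All of these but Ak7 had every rCNT sample above every Ctrl sample.

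Tppp3, a tubulin polymerization protein often used to mark ciliated cells, went the other way. It was 13.71, 13.59 and 13.46 in Ctrl and 13.07, 12.97 and 13.07 in rCNT. No rCNT sample reached a Ctrl sample, and the difference was -0.62 ± 0.17 with limma adjusted p = 0.0103. Without Ctrl 1 the difference was -0.51 and the call was lost. After BayTubes it stood at -0.38 ± 0.14 and after fullerene at -0.44 ± 0.15, neither called, with every sample below Ctrl.

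**Figure D4:**
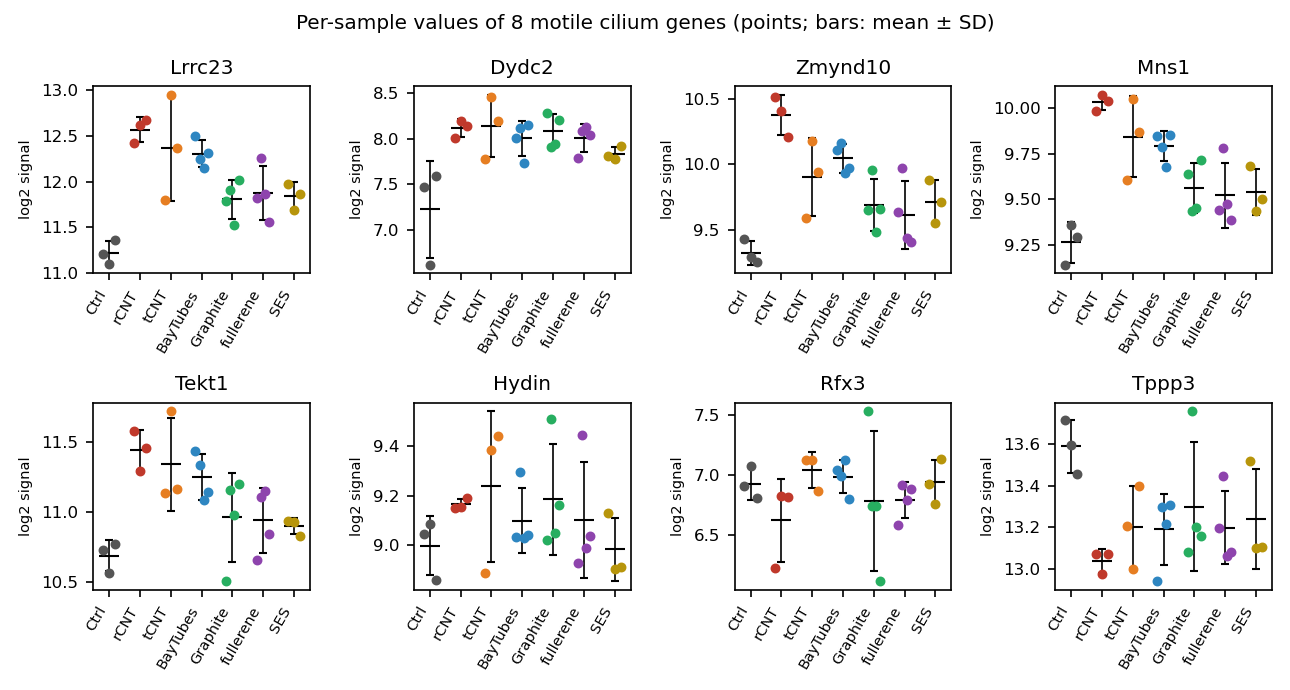
Log2 signal (vertical axes, each with its own range) of 8 of the genes in every sample, by group (horizontal axes), with the mean ± SD of each group. Lrrc23, Zmynd10, Mns1 and Tekt1 are on average lowest in Ctrl and highest in rCNT, Dydc2 has 1 low Ctrl sample at 6.62, Hydin and Rfx3 overlap between groups, and Tppp3 is on average highest in Ctrl.

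Graphite, fullerene and SES moved few of these genes past the threshold. After Graphite, 2 of 44 were called higher, Cfap53 and Dydc2, beside 0.545% of all genes tested (1.13% in either direction), and the median was 0.22. After fullerene, 1 of 44 was called higher, Dydc2, beside 0.151% (0.26% in either direction), and the median was 0.25. After SES, limma called 0 of 44, as it called 0% of all genes tested, and the median was 0.08. At an unadjusted p under 0.05 in limma there were 6 of 44, beside 747 of 16519 genes tested. Every sample lay above every Ctrl sample for 16 of 44 genes in Graphite (9.41% of all genes tested), 12 in fullerene (11.2%) and 17 in SES (7.25%). The lowest limma adjusted p after SES was 0.452, for Dydc2 at 0.66 ± 0.17. Without Ctrl 1 or without Ctrl 2 the Graphite count was 0, and without Ctrl 2, fullerene 22 or fullerene 23 the fullerene count was 0. Without Ctrl 3, Graphite 13 or Graphite 16 the Graphite count was 1, and without rCNT 6 it was 5. Without Graphite 14 it was 6, of which 5 were higher and 1 lower. Without tCNT 7 it was 6, all higher, and the fullerene count was 2.

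The groups rCNT, tCNT and BayTubes were then compared with each other. For rCNT against tCNT, rCNT against BayTubes and tCNT against BayTubes, limma called 0 of 44 genes in each, where it called 8.84%, 13.1% and 0.0908% of all genes tested. At an unadjusted p under 0.05 in limma there were 2, 4 and 1 of 44, beside 3949, 4624 and 585 of 16519 genes tested. The lowest p for rCNT against tCNT was that of Zmynd10, 0.41 ± 0.16 with limma adjusted p = 0.111 and no overlap between groups. For rCNT against BayTubes it was that of Dnai2, 0.32 ± 0.13 with adjusted p = 0.0999 in limma. For Lrrc23 the 95% interval of rCNT minus tCNT ran from -0.28 to 0.57 and of rCNT minus BayTubes from -0.17 to 0.64. Without rCNT 5, 1 gene was called for rCNT against tCNT and 1 for rCNT against BayTubes.

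Across the 6 materials, the limma F test called 12 of 44 genes as differing, beside 16.5% of all genes tested. They were Lrrc43, Zmynd10, Tekt1, Dnai2, Lrrc23, Mns1, Cfap52, Cfap206, Cfap126, Rsph9, Ccdc113 and Rsph1. Lrrc43 had the lowest adjusted p, 0.00134. Its SES samples, at 8.04, 8.04 and 7.98, were below all Ctrl samples, at 8.24, 8.07 and 8.10, while its rCNT samples, at 8.56, 8.51 and 8.61, were above them.

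Over the 24 samples, 27 of 44 genes had a Pearson correlation above 0.5 with the mean of the other 43. This describes samples that share groups and arrays, and the differences between groups are part of it. Dnah5 (0.49) and Ccdc39 (0.44), each called higher after 1 material, were not among the 27, while Hydin (0.65) and Drc1 (0.70), called after none, were. Cfap52 was highest at 0.91, followed by Lrrc23 and Tekt1, both at 0.87. Below 0 were 3 genes, Tppp3 at -0.38, Iqcg at -0.18 and Rfx3 at -0.04. Outside the list, the 10 genes closest to the mean of the 44 were Nme5 (0.93), Armc4 (0.91), Zbbx, Cibar2, Lrrc74b, Hoatz, 1700001L19Rik, Fam166c, Mok and Myb (0.86), of 16519 genes with a median of -0.01. Nme5, a spoke protein, was 11.33, 11.28 and 11.22 in Ctrl and 11.65, 11.92 and 11.88 in rCNT, a difference of 0.66 ± 0.16. Armc4, which docks outer arms, rose by 0.79 ± 0.15 after rCNT and 0.59 ± 0.13 after BayTubes.

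Further genes of the pathway were counted over whole lists, to be read beside the 12.4%, 0.684% and 2.16% of all genes tested that were called higher after rCNT, tCNT and BayTubes. Of 68 other axoneme genes tested, 22 were called higher and 2 lower after rCNT, 7 and 0 after tCNT and 15 and 0 after BayTubes, with medians of 0.30, 0.37 and 0.26. The largest among the named ones was Ccdc103, a dynein attachment factor, at 1.29 ± 0.20 after rCNT. Of 20 genes of multiciliated cell formation, 11 were higher and 1 lower after rCNT, 4 and 0 after tCNT and 6 and 0 after BayTubes. Of 27 intraflagellar transport genes, which carry cargo along any cilium, 3 were higher after rCNT, 0 after tCNT (6 at an unadjusted p under 0.05 in limma) and 2 after BayTubes, with medians of 0.11, 0.11 and 0.15. For the transport genes the share after rCNT was no larger than that of all genes tested. At an unadjusted p under 0.05 in limma, 1536 of 16519 genes tested passed after tCNT.

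The formation genes included larger differences than any structure gene. Ccno, which drives the multiplication of centrioles, was 9.44, 9.57 and 9.46 in Ctrl and 11.75, 11.49 and 11.37 in rCNT. It was 11.40, 10.97, 10.91 and 11.17 in BayTubes. The groups were far apart, with 1.85 ± 0.21 after rCNT, 1.24 ± 0.21 after tCNT and 1.59 ± 0.17 after BayTubes. Deup1, the scaffold on which those centrioles form, rose by 1.70 ± 0.22, 1.55 ± 0.22 and 1.79 ± 0.18, and Foxn4, a transcription factor of these cells, by 1.79 ± 0.20, 1.44 ± 0.20 and 1.72 ± 0.16.

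Foxj1, the master regulator of motile cilium genes, rose after rCNT and was not called after BayTubes. It was 10.56, 10.18 and 10.11 in Ctrl and 11.38, 11.31 and 11.28 in rCNT. In BayTubes it was 10.31, 10.20, 10.03 and 9.73, and in Graphite 9.93, 9.40, 9.55 and 9.64. The rCNT and tCNT samples were all above Ctrl, those of tCNT at 10.73 to 11.05. The BayTubes samples overlapped Ctrl, and the Graphite and SES samples were all below Ctrl, those of SES at 9.13 to 10.03. It rose by 1.10 ± 0.20 after rCNT (limma adjusted p = 0.000461) and stood at -0.20 ± 0.16 after BayTubes and -0.62 ± 0.17 after Graphite, neither called. The difference of rCNT from BayTubes was 1.30 ± 0.18 (limma adjusted p = 0.000122). That of rCNT from tCNT was 0.57 ± 0.19, not called (limma adjusted p = 0.0686). Against Ctrl, Foxj1 stood at 0.53 ± 0.19 after tCNT, -0.61 ± 0.19 after SES and -0.29 ± 0.18 after fullerene, none called.

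Genes of other cell types were counted in the same samples, beside 12.4% of all genes tested called higher and 9.41% lower after rCNT. After tCNT and BayTubes, 1536 and 2294 of 16519 genes tested had an unadjusted p under 0.05 in limma. All 8 goblet cell genes tested were called higher after rCNT, 4 after tCNT and 2 after BayTubes, and their mean level was 7.33 to 7.50 in Ctrl, 10.03 to 11.77 in rCNT, 9.36 to 10.05 in tCNT and 8.53 to 9.90 in BayTubes. Of 9 club cell and secretory genes, 3 were higher and 1 lower after rCNT, 2 higher after tCNT and 1 higher after BayTubes. Of 12 endothelial genes, 9 were lower after rCNT, with mean levels of 12.84 to 12.95 in Ctrl and 12.09 to 12.27 in rCNT, 0 were lower after tCNT (4 at an unadjusted p under 0.05 in limma) and 2 after BayTubes. Of 10 alveolar type 1 genes 7 were lower after rCNT and 0 after tCNT or BayTubes (1 and 3 at an unadjusted p under 0.05 in limma). Of 18 genes in another list for ciliated cells, 5 were higher and 1 lower after rCNT. After tCNT 0 were called (10 at an unadjusted p under 0.05 in limma), and 1 was higher after BayTubes. This list shares Foxj1, called higher after rCNT, with the formation genes. Heart muscle genes averaged 9.86 to 10.45 in tCNT and 8.09 to 9.73 in Ctrl, with 0 of 12 called by limma and 9 of 12 at an unadjusted p under 0.05. The part of these changes in the values of the cilium genes was not tested.

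The counts leaned on single samples to different degrees. Leaving out each of the 24 samples in turn gave 18 to 24 cilium genes changed after rCNT, 5 to 17 after BayTubes and 0 to 19 after tCNT, where with all samples 21.8%, 3.18% and 0.708% of all genes tested were called in either direction. For tCNT the count was 0 without tCNT 8 or without Ctrl 2, 1 without tCNT 9, 3 without Ctrl 1 or Ctrl 3, 4 without SES 11, 5 without SES 12 and 19 without tCNT 7. For BayTubes it was 9, 6 and 5 without Ctrl 1, 2 and 3, and 7 without BayTubes 17. The median differences moved less, between 0.41 and 0.48 after rCNT, 0.37 and 0.57 after tCNT and 0.31 and 0.39 after BayTubes. Lrrc23, Mns1, Zmynd10 and Dydc2 were called after both rCNT and BayTubes whichever sample of the compared groups was left out. Leaving out a sample of another group, which changes the shared spread, ended 2 of the 24 calls after rCNT (Ccdc39 and Dnali1), 4 of 8 after tCNT (Cfap53, Mns1, Rsph1 and Tekt1) and 4 of 15 after BayTubes (Ccdc40, Cfap53, Lrrc43 and Rsph9).

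The slides divide the samples unevenly, since slide 1 holds Ctrl 2 alone of the Ctrl samples, slide 2 holds Ctrl 1 and Ctrl 3, and slide 3 holds none. Slide 1 has 1 rCNT sample, and slide 2 has 1 rCNT and 1 BayTubes sample and no tCNT sample. Each comparison of rCNT, tCNT or BayTubes with Ctrl within a slide therefore has a single sample on at least 1 side. The spread of a single sample is borrowed from other groups. Within slide 1 the median difference of the 44 genes was 0.35 after rCNT, 0.31 after tCNT and 0.25 after BayTubes. On slide 2 both Ctrl samples were in Cy3 while rCNT 6 and BayTubes 20 were in Cy5, and Graphite is the 1 group there with both dyes, so a dye term rests on Graphite 13 and Graphite 14. With that term the median was 0.50 after rCNT and 0.39 after BayTubes, and without it 0.38 and 0.21. Dye and material cannot be told apart on that slide. Calls within slides are not counted here, because single samples have no spread of their own.

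Where a gene had further spots on the array, they did not always follow its brightest one. Of the 44 genes, 19 had at least 2 spots. The second spot of Lrrc43 differed by -0.53 between rCNT and Ctrl where the brightest gave 0.42, and the second spot of Tekt1 gave 0.40 where the brightest gave 0.76, both as plain differences of group means. The second spot of Dydc2 gave plain differences from Ctrl of 0.17 for rCNT, 0.33 for tCNT and 0.25 for BayTubes. Its brightest spot gave 0.88, 0.91 and 0.77. Of the 10 spots of Ak8, 2 gave -0.28 and -0.90 for rCNT against Ctrl. With the mean of all spots of a gene, the median difference after rCNT was 0.26 in place of 0.47.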

How the data were processed

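Lung RNA of 24 pooled samples was measured on two-colour Agilent arrays, each dye carrying its own sample. The table deposited by the authors gives a log2 signal for each spot, made with Agilent Feature Extraction and limma, per the submitters' processing notes. Versions, background correction and filters are not given in the sources used here. The sorted values of any 2 samples differed by at most 0.0856, so they share nearly 1 distribution, and the values are signals rather than ratios. Flags for spots near background were not used here.

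Of 62976 spots, 31465 had 1 gene symbol, 0 had several and 31511 had none. Names were brought up to date by accession for 29050 spots, by symbol for 2061 and by synonym for 349, while 5 kept the platform's symbol, with RefSeq tables of GRCm38.p6. A gene had to exceed the 40th percentile of a sample (5.69 to 5.75) in at least 3 samples.

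Differences were estimated with limma 3.58.1 (statmod 1.5.0) in R 4.3.3 over all 24 samples, with terms for group and dye, and with array entered as a random block at a correlation of 0.399. It used moderated variances with 16 residual and 3.54 prior degrees of freedom, 2-sided tests and Benjamini-Hochberg adjustment over 16519 genes. The fit was tested on simulated data. The members and the gene lists were chosen with earlier results of these data known. Named genes were any of the 44, up to 3 genes of each other list per comparison (those of smallest p among the ones called), and the 10 others that best followed the mean of the 44. Alternatives concerned dye, array, slide, low-signal filter, normalization, choice of spot, variance model, sample weights, threshold and which samples entered, including leaving out each one in turn.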

Additional observations from a re-analysis of the deposited data

Results flagged for a closer look

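Within the groups of 4 samples, the highest or lowest sample of a gene stood apart from the rest by Dixon's test at the 95% level in 7 of 132 sets of gene and group, where chance gives about 5%. In BayTubes, Hydin was high in BayTubes 18 at 9.29, Cfap54 and Ak7 were high in BayTubes 20 at 6.54 and 8.14, and Lrrc43 was low there at 8.37. Cfap126 was high in Graphite 13 at 12.37. Rsph9 was low in fullerene 21 at 10.86, and Dynlrb2 was high in fullerene 22 at 13.68. These last samples are also the lowest and the highest fullerene sample on the mean of all 44 genes.

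The F test of limma for a difference among the 6 materials passed for 12 cilium genes. The Benjamini-Hochberg adjusted p was 0.00134 for Lrrc43, 0.00192 for Zmynd10, 0.00259 for Tekt1, 0.00304 for Dnai2, 0.00334 for Lrrc23, 0.00408 for Mns1 and 0.00424 for Cfap52. It was 0.011 for Cfap206, 0.0272 for Cfap126, 0.0337 for Rsph9, 0.0371 for Ccdc113 and 0.0454 for Rsph1. Foxj1 was higher after rCNT than after BayTubes by 1.30, while Deup1, Foxn4 and Ccno stood at -0.09, 0.06 and 0.27 in that comparison.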

How the results depend on the processing

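With 3 or 4 pools a group and no count depth in array signals, the number of samples limits the precision. Each result was recomputed under the alternatives, and the cause of a shift was not tested. Over the 50 called changes of single genes against Ctrl, the direction was kept under every alternative but the fit within slide 2 with a dye term. There the term rests on Graphite 13 and Graphite 14, rCNT 6 and BayTubes 20 are single Cy5 samples against Cy3 Ctrl samples, and rCNT against Ctrl turned to -0.038 for Cfap126, -0.0097 for Rsph1, -0.80 for Ccdc39 and 0.22 for Tppp3, and BayTubes against Ctrl to -0.089 for Rsph1. Within slide 2 without the dye term, a setting chosen after seeing the data, 0 of 42 turned, and the medians were 0.21 after BayTubes and 0.39 after fullerene. The counts of cilium genes called moved as follows, where numbers in brackets are those of all genes tested called in the same fit. As reported they were 24 (3600) after rCNT, 8 (117) after tCNT, 0 (0) after SES, 15 (526) after BayTubes, 2 (187) after Graphite, 1 (43) after fullerene and 12 (2718) by the F test. Without the dye term they were 5 (106) after tCNT, 9 after BayTubes, 1 (146) after Graphite and 0 (30) after fullerene. By the F test they were then 6 (2291), a share of the 44 no larger than that of all genes tested. Without the array block they were 5 (240) after BayTubes, 1 (39) after Graphite, 0 (30) after fullerene and 7 (2099) by the F test. With array as a fixed term, which leaves comparisons within arrays, they were 8 (1074) after rCNT, 0 (0) after tCNT, 1 (61) after BayTubes, 0 (0) after Graphite, 0 (1) after fullerene and 1 (429) by the F test. With array weights they were 24 (632) after tCNT, 1 (83) after SES, 24 (1173) after BayTubes, 6 (968) after Graphite, 6 (736) after fullerene, 1 (3959) for rCNT against BayTubes and 23 (4884) by the F test. At an adjusted p under 0.1 in limma they were 13 (214) after tCNT, 9 (771) after Graphite and 1 (3170) for rCNT against BayTubes. With only the groups compared in the fit they were 8 (1017) after rCNT, 0 (51) after tCNT, 9 (300) after BayTubes, 0 (0) after Graphite and 0 (13) after fullerene. With slide as a fixed term they were 4 (544) after Graphite and 1 (3162) for rCNT against BayTubes. Within slide 1 they were 10 after rCNT, 0 after tCNT, BayTubes, Graphite and fullerene, 3 for rCNT against tCNT and 6 for rCNT against BayTubes, and the medians were 0.31 after tCNT, 0.25 after BayTubes and 0.034 after fullerene. Within slide 2 with the dye term the median after fullerene was 0.59. Where a slide holds 1 sample of a group, its spread was taken to be that of the other groups, so counts within slides are not given. The mean of all spots of a gene gave a median of 0.26 after rCNT and a count of 1 (2232) for rCNT against BayTubes. The stricter filter, no filter, both other normalizations and the trended robust variance kept all these counts within 1.5 times. Leaving out each sample in turn gave counts of 18 to 24 after rCNT, 0 to 19 after tCNT, 5 to 17 after BayTubes, 0 to 6 after Graphite, 0 to 2 after fullerene, 0 to 1 for rCNT against tCNT, 0 to 1 for rCNT against BayTubes and 8 to 15 by the F test. The medians then ranged from 0.41 to 0.48 after rCNT, 0.37 to 0.57 after tCNT, 0.06 to 0.14 after SES, 0.31 to 0.39 after BayTubes, 0.21 to 0.26 after Graphite and 0.17 to 0.28 after fullerene. They ranged from -0.13 to 0.06 for rCNT against tCNT, 0.05 to 0.13 for rCNT against BayTubes and -0.01 to 0.22 for tCNT against BayTubes. Sample numbers are unique and pair no samples, while arrays pair samples across groups, and array as a fixed term is the paired analysis.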
